A study of Mus musculus with 52 samples.

Results

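Chemokines and cytokines are the secreted proteins with which glia, vessels and immune cells signal to each other. The 37 genes followed here were the rows that carry a listed gene symbol. They were the chemokines Ccl2, Ccl3, Ccl4, Ccl5, Ccl6, Ccl7, Ccl8, Ccl9, Ccl11, Ccl12, Ccl20, Cxcl1, Cxcl2, Cxcl3, Cxcl5, Cxcl9, Cxcl10, Cxcl12, Cxcl14, Cxcl16 and Cx3cl1, the cytokines Il1a, Il1b, Il1rn, Il6, Il11, Il18, Il33, Il34, Lif and Tnf, the colony stimulating factors Csf1, Csf2 and Csf3, and Tgfb1, Tgfb2 and Tgfb3. All 37 were among the 55487 genes of the first KA cohort, the 55487 of the CNO set and the 53700 of the astrocytes, and 34 were among the 34042 of the second KA cohort, where Cxcl3, Ccl11 and Csf2 were not analysed. RNA sequencing covered 52 libraries, 25 of brain and 27 of cultured primary astrocytes, all labelled strain C57BL/6. Brain came from a KA-induced TLE model (kainic acid, which causes temporal lobe epilepsy) and from a CNO-induced epileptic model. The first KA cohort had 3 KA and 3 untreated libraries, and the CNO set had 3 CNO and 3 untreated libraries. The second KA cohort had 3 libraries labelled A2aR knock down with KA, 3 with APOE knock out and KA, 4 with KA and 3 untreated. Astrocytes formed 9 groups of 3 libraries. APOE KO astrocytes were given neuronal conditional medium, oleic acid or palmitic acid, or were untreated, and wild-type astrocytes were given those same 3 treatments or medium from APOE KO neurons, or were untreated. Titles of every library given either medium carry KA, and the word mix, left unexplained, stands in the titles of knockout astrocytes 3, both untreated and with palmitic acid. The sources used here do not give age, brain region, dose, time, the way A2aR was knocked down or what made cells of the CNO model respond to CNO. Whether the libraries of a group were separate animals or cultures is not labelled, and p-values cover only the spread among them, possibly technical.

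As background, chemokines bind receptors on leukocytes and glia and steer their movement. Ccl2, Ccl7 and Ccl12 draw monocytes through Ccr2, Ccl3, Ccl4 and Ccl5 draw monocytes and T cells, Cxcl1, Cxcl2, Cxcl3 and Cxcl5 draw neutrophils through Cxcr2, and Cxcl9 and Cxcl10 are interferon-induced and draw T cells through Cxcr3. Cxcl12 and the neuronal membrane chemokine Cx3cl1 are made in healthy brain and act on Cxcr4 and on the microglial receptor Cx3cr1. Il1a, Il1b and Tnf activate NF-kB, and Il1rn blocks the receptor of Il1a and Il1b. Il6, Il11 and Lif signal through a shared receptor chain to Stat3. Csf1 and Il34 both bind Csf1r, on which microglia depend, and the Tgfb proteins signal through Smad factors.

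Many of these genes lie close together. In the GENCODE M21 annotation of GRCm38, 10 Ccl members lie on chromosome 11 between 82035571 and 83664683, and 6 Cxcl members lie on chromosome 5 between 90759360 and 92348889. RefSeq promoters (GRCm38.p6) matched 27 of the 37 genes by symbol. Those without one were Ccl2, Ccl4, Ccl5, Ccl7, Ccl11, Cxcl5, Cxcl16, Il34, Csf3 and Tgfb3. The bases before the start of Cxcl10 and Il6, and of the Cxcl1, Cxcl2, Cxcl3 and Ccl20 genes, are shown 5′ to 3′ on the strand of the gene because they hold NF-kB consensus matches. They are a part of the 10 members with such matches. All but Cxcl3, which was not tested, were called higher with palmitic acid in both astrocyte genotypes. Of the matched members not shown, Lif and Tgfb1 were called higher in both. Ccl9 was called higher in wild type alone, and Csf1 was called higher in wild-type and lower in knockout astrocytes. Csf2 and Il11 were called higher in both without a match. Ccl5 was also called higher in both and had no promoter to search. A link between matches and palmitic acid was not tested. Capitals mark matches, on either strand, to the NF-kB consensus, to an interferon-stimulated motif (TTTC, any 2 bases, TTTC) or to TGANTCA (an AP-1 motif). Cxcl10 is read from the minus strand at chr5:92348890-92349139, Il6 from the plus strand at chr5:30012864-30013113, Cxcl1 from the plus strand at chr5:90891125-90891244, Cxcl2 from the plus strand at chr5:90903779-90903898, Cxcl3 from the plus strand at chr5:90785981-90786100 and Ccl20 from the plus strand at chr1:83116646-83116765.
Cxcl10: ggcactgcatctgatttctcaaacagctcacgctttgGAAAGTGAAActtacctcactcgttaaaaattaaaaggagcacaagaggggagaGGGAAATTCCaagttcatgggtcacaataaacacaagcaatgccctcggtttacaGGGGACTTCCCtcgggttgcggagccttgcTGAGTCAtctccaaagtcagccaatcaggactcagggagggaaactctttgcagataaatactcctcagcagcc
Il6: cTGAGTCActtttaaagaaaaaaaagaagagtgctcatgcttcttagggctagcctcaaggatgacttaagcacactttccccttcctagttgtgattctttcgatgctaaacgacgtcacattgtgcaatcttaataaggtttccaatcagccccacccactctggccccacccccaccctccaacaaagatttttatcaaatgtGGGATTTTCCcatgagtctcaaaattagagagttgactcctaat
Cxcl1: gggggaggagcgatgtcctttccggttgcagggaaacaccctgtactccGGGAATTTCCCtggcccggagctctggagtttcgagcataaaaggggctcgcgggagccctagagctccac
Cxcl2: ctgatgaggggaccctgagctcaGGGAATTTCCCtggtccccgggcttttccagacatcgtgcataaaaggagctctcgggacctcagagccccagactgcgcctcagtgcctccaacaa
Cxcl3: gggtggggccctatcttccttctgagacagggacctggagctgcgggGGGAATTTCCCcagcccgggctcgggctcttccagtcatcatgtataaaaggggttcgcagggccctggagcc
Ccl20: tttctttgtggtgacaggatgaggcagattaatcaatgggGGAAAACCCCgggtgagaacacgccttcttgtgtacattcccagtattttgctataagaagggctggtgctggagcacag
Over the 250 bases before the start, the NF-kB consensus was found in 10 of the 27 promoters (37%), against 7.01% of the first listed promoters of 27025 genes. Those 10 belonged to Ccl9, Ccl20, Cxcl1, Cxcl2, Cxcl3, Cxcl10, Il6, Lif, Csf1 and Tgfb1. TGANTCA stood in 6 of 27 (22.2%, against 6.87% of all), the interferon-stimulated motif in 2 (7.41%, against 3.04%) and TTCNNNGAA, the motif of Stat factors, in 1 (3.70%, against 7.18%). A match is a description of the letters and not a binding site.

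Libraries of the second KA cohort held 68760648 to 76643829 counts. The other tables are in TPM, a length-scaled share of transcripts, and their depth is unknown. The Apoe rows followed the labels. In brain given KA, Apoe stood at 29.7 to 58.6 TPM in APOE knock out libraries, against 829.7 to 1467 TPM in KA libraries. Knockout astrocytes held 5.36 to 118 TPM, against 2221 to 5024 TPM in wild-type astrocytes. Adora2a, the gene of A2aR, stood at 1.75, 2.15 and 1.89 TPM in A2aR knock down libraries, within the 1.32 to 2.9 TPM of KA libraries, so this row did not check that label. In the second cohort the Y-linked gene Ddx3y stood at 20.3 to 34.2 TPM in every library given KA, against 0.404, 0.133 and 0.128 TPM in untreated libraries, so that KA and sex cannot be told apart there. In astrocytes Ddx3y lay at 0.52 to 1.35 TPM in wild-type oleic acid and 3.22 to 4.49 TPM in wild-type palmitic acid libraries, against 14.9 to 19.1 TPM in wild-type untreated ones. In wild-type astrocytes fatty acid and the sex of the cultures therefore cannot be told apart. The interactions of genotype with either fatty acid use these same libraries. The part of Ddx3y in the results was not tested. Markers of microglia were present in every astrocyte group, with summed levels of 111 to 1338 TPM for 13 genes. Those of mural cells and fibroblasts summed to 7573 to 8280 TPM in wild-type untreated libraries. With oleic acid they summed to 3795 to 4271 TPM and with palmitic acid to 3253 to 3606 TPM. In knockout libraries, in the same order, they summed to 6231 to 6341, 4300 to 5002 and 939 to 1058 TPM. Astrocyte markers summed to 2069 to 2321 TPM in wild-type and 449.9 to 464 TPM in knockout untreated libraries. Astrocyte levels are thus levels of the culture.

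In the first KA cohort, chemokines that draw monocytes and T cells stood higher in KA brain than in untreated brain, and 1 of them passed the test. Ccl12, a mouse chemokine that draws monocytes, stood at 24.1, 53.8 and 17.1 TPM in KA libraries, against 0.90, 1.79 and 1.81 TPM in untreated libraries. The groups did not overlap, and Ccl12 rose (log2 3.57 ± 0.43, adjusted p = 0.042, limma). Cxcl10 stood at 31.8, 50.5 and 8.08 TPM in KA libraries, against 0.38, 0.35 and 0 TPM in untreated libraries. Each KA library lay above every untreated one, KA 3 by least, and the change missed the threshold (log2 4.34 ± 0.61, adjusted p = 0.053). Ccl3 stood at 11.8, 13.2 and 3.96 TPM in KA libraries, against 0.16, 0.59 and 0.45 TPM in untreated libraries, and Ccl5 at 17.1, 26.1 and 10.1 TPM against 3.06, 0.83 and 1.44 TPM. Both had no overlap and missed the threshold (Ccl3 log2 2.80 ± 0.42, adjusted p = 0.059, Ccl5 log2 2.74 ± 0.42, adjusted p = 0.059). Cxcl10 and Ccl3 passed the filter on low values (1 TPM or more in 3 libraries) through the KA libraries alone. Such a route favours a separation of the groups, so the results of Cxcl10 and Ccl3 are a description. For the tables in TPM, fold changes are those of TPM + 1 in log2, a scale that makes the change of low genes look smaller. In bulk RNA, more cells of a type and more RNA per cell cannot be told apart.

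Ccl2 stood at 1.65, 5.23 and 1.65 TPM in KA libraries, against 0.29, 0.13 and 0 TPM in untreated libraries. KA 2 was the highest and the groups did not overlap (log2 1.64 ± 0.36, adjusted p = 0.12). Ccl2 too passed the filter through the KA libraries alone, so its result is a description. Tgfb1, a growth factor that restrains microglial activation, stood at 13.7, 18.4 and 7.47 TPM in KA libraries, against 4.05, 4.94 and 4.37 TPM in untreated libraries (log2 1.30 ± 0.33, adjusted p = 0.15). The survival factor of microglia, Csf1, stood at 23.6, 28.9 and 13.8 TPM in KA libraries, against 11.2, 9.84 and 6.64 TPM in untreated libraries (log2 1.14 ± 0.32, adjusted p = 0.19). For both genes every KA library was above every untreated one, and neither passed the test. Cxcl12 overlapped, at 38.6, 47.1 and 59.2 TPM in KA libraries, against 55, 62.7 and 32.9 TPM in untreated libraries (log2 -0.02 ± 0.28, adjusted p = 0.96).

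Of the 37 members 21 passed the filter (1 TPM or more in 3 libraries), 5 of them (Ccl2, Ccl3, Cxcl5, Cxcl10 and Il1a) through the KA libraries alone, and 1 was called higher and 0 lower. Among all genes tested the background was 0.183% called in either direction and 0.157% called higher. At an unadjusted p under 0.05 there were 15 members, a description only, since the share of all genes at that p is not given. Every KA library lay above every untreated one for 15 of the 21 tested members, against a background of 22.7% of genes tested, and for 0 the reverse, against 4.64%. The 5 that passed the filter through KA libraries alone were all among those 15. That route favours such a separation, so the count is a description. Over the 33 members above 0 in some library the median difference was 0.78 on the log2(TPM + 1) scale, against 0.09 for 27611 such genes. Il1b, Il6 and Tnf did not pass the filter, with at most 1.31, 0.32 and 0.32 TPM in KA libraries, against 0.86, 0.23 and 0.060 TPM in untreated ones. Csf2, Csf3, Ccl20 and Cxcl3 were listed at 0 in all 6 libraries.

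Summed levels of the 13 microglia markers were 1642 to 4169.9 TPM in KA libraries, against 632 to 751 TPM in untreated libraries, and all 13 were above 0 in every library. The 13 markers of monocytes, neutrophils and lymphocytes summed to 6.58 to 31.8 TPM in KA libraries, against 2.37 to 3.44 TPM in untreated libraries. Astrocyte markers summed to 2363 to 3948 TPM in KA libraries, against 1376 to 1924 TPM in untreated libraries, and Gfap, the intermediate filament of reactive astrocytes, stood at 1868, 1828 and 638 TPM against 312, 319 and 221 TPM. Choroid plexus and ependyma markers summed to 1504 to 2271 TPM in KA libraries, against 141 to 1104 TPM in untreated ones. The part of these markers in the chemokine values was not tested. Of 23 receptor genes of these ligands tested, limma called 0, with 14 at an unadjusted p under 0.05 and a median of 1.11 log2. Limma also called 0 of 20 NF-kB pathway genes (9 at an unadjusted p under 0.05), 0 of 13 JAK-STAT3 genes (6), 0 of 8 inflammasome genes (7) and 0 of 18 TGF-beta pathway genes (5). The share of all genes at that p is not given, so the unadjusted counts of these lists are descriptions. Over the alternatives the adjusted p of Ccl12 ran from 0.026 to 0.35, and its call was lost without KA 1, KA 2, untreated 1 or untreated 2, with a replicate block, without a filter, and with median-ratio scaling (log2 3.31, adjusted p = 0.056), which moved the median of all genes from 0.25 to −0.02 log2. Without KA 3 there were 5 members called and without untreated 3 there were 3, and the mitochondrial share of TPM in untreated 3 was 9.01%, against 16.1% and 15.9% in untreated 1 and 2.

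**Figure D1:**
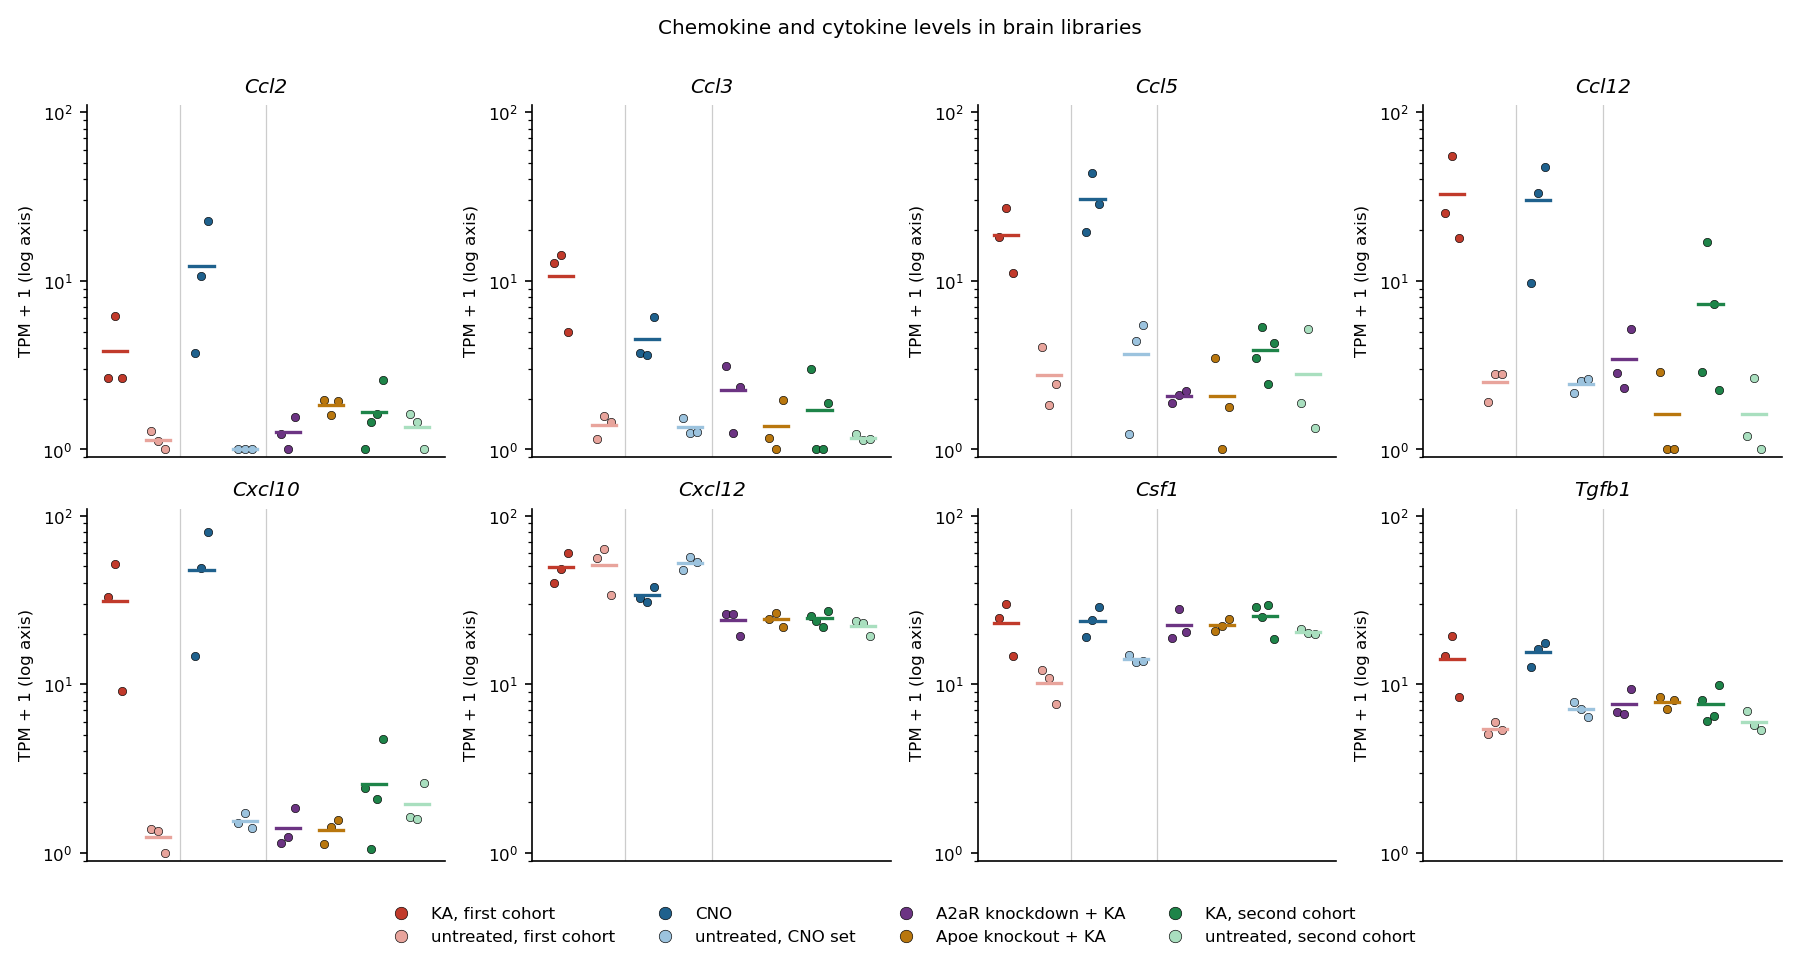
Levels of 8 chemokines and cytokines in every brain library, as TPM + 1 on a log axis, with points for libraries and a bar for the group mean. In KA and CNO libraries of the first cohort and the CNO set, Ccl12, Ccl3, Ccl5 and Cxcl10 lie above every untreated library of the same set, and in the second cohort the KA and untreated libraries overlap.

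After CNO, inflammatory chemokines, Csf1 and Tgfb1 were higher than in untreated brain and Cxcl12 was lower. CNO is a drug used to switch on engineered receptors. Cxcl16, a membrane chemokine for T cells, stood at 4.84, 7.26 and 7.19 TPM in CNO libraries, against 1.3, 1.44 and 1.48 TPM in untreated libraries. It rose with no overlap (log2 1.61 ± 0.18, adjusted p = 0.0053). Cxcl10 stood at 13.8, 47.7 and 78.8 TPM in CNO libraries, against 0.50, 0.73 and 0.41 TPM in untreated libraries. Every CNO library was above every untreated one, CNO 1 by least (log2 4.65 ± 0.54, adjusted p = 0.0056). Ccl12 stood at 8.68, 32.3 and 46.4 TPM in CNO libraries, against 1.16, 1.56 and 1.62 TPM in untreated libraries (log2 3.35 ± 0.52, adjusted p = 0.015). Ccl2 stood at 2.75, 9.67 and 21.5 TPM in CNO libraries and was listed at 0 in the 3 untreated libraries, so no fold is given (adjusted p = 0.022). Cxcl10, Ccl2, Ccl3 and Ccl4 passed the filter through CNO libraries alone, so their calls are given as a description. CNO 1 was lowest and CNO 3 highest for both of these monocyte chemokines.

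Ccl3, Ccl4 and Ccl5, which draw monocytes and T cells, stood higher as well. Ccl3 stood at 2.74, 2.64 and 5.1 TPM in CNO libraries, against 0.53, 0.26 and 0.27 TPM in untreated libraries (log2 1.69 ± 0.24, adjusted p = 0.012). Ccl4 stood at 1.71, 2.03 and 3.79 TPM against 0.33, 0.16 and 0.17 TPM in untreated libraries (log2 1.48 ± 0.25, adjusted p = 0.020). Ccl5 stood at 18.5, 42.3 and 27.7 TPM against 0.24, 3.4 and 4.47 TPM in untreated libraries (log2 3.22 ± 0.55, adjusted p = 0.021). None of the 3 overlapped between groups. Tgfb1 rose to 11.7, 15.1 and 16.6 TPM in CNO libraries, against 6.84, 6.18 and 5.41 TPM in untreated libraries (log2 1.11 ± 0.16, adjusted p = 0.012). Csf1 rose to 18.1, 23 and 27.6 TPM in CNO libraries, against 13.9, 12.5 and 12.7 TPM in untreated libraries (log2 0.75 ± 0.16, adjusted p = 0.045), and missed the threshold with median-ratio scaling (log2 0.68, adjusted p = 0.053). Cxcl12 ran the other way. It fell to 31.5, 29.9 and 36.8 TPM in CNO libraries, against 46.7, 56.1 and 52.2 TPM in untreated libraries (log2 -0.64 ± 0.11, adjusted p = 0.023).

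Cx3cl1, the neuronal ligand of the microglial receptor Cx3cr1, stood at 276, 311 and 276 TPM in CNO libraries, against 274, 303 and 276 TPM in untreated libraries (log2 0.01 ± 0.08, adjusted p = 0.96). Il34, the neuronal ligand of Csf1r, stood at 46.1, 55.9 and 48 TPM against 51.3, 64.1 and 65.6 TPM in untreated libraries (log2 -0.26 ± 0.12, adjusted p = 0.36). Neither passed the test, and their groups overlapped. The Stat3-activating cytokine Lif stood at 0.56, 2.38 and 5.54 TPM in CNO libraries, against 0.20, 0.29 and 0.52 TPM in untreated libraries, and was not tested. Il1b, Il6 and Tnf stood at most at 2.12, 0.32 and 0.43 TPM in CNO libraries, against 0.34, 0.16 and 0 TPM in untreated ones, and did not pass the filter.

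Of the 37 members 20 passed the filter in the CNO set, 4 of them (Ccl2, Ccl3, Ccl4 and Cxcl10) through CNO libraries alone, and limma called 9 higher and 1 lower. All 4 of those were called higher, and of the other 16 tested 5 were higher and 1 lower. With no filter on low values 2 were called, Cxcl10 and Cxcl16. The background among all genes tested was 3.70% called, with 3.46% higher and 0.233% lower. For 10 of the 20 tested members every CNO library lay above every untreated one, against 15.6% of genes tested, and for 1 below, against 6.01%. The 4 that passed the filter through CNO libraries alone were all among those 10. That route favours such a separation, so the count is a description. The median difference over the 34 members above 0 was 0.69 on the log2(TPM + 1) scale, against 0.02 for all such genes. Of 23 receptor genes 6 were higher and 0 lower, with Csf1r at 1.34 log2, Cx3cr1 at 0.88, Osmr at 1.58 and Tnfrsf1a at 1.07, and the list median was 0.59. Of 13 JAK-STAT3 genes 4 were higher and 0 lower, among them Stat3 (0.92 log2) and Socs3, its feedback inhibitor (2.46). Of 21 NF-kB genes 3 were higher and 0 lower: the adhesion molecules Vcam1 (0.80 log2) and Icam1 (1.15) and the NF-kB regulator Bcl3 (1.88). Of 8 inflammasome genes 1 was higher, the adaptor Pycard (1.77 log2), and of 19 TGF-beta genes 2 were higher, Ccn1 (1.77) and the receptor Tgfbr2 (0.68).

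All 13 microglia markers tested were higher after CNO, and they summed to 1495 to 1876 TPM in CNO libraries, against 579 to 664 TPM in untreated libraries. Astrocyte markers summed to 4066 to 4239 TPM in CNO libraries, against 1882 to 2130.0 TPM in untreated libraries, and Gfap stood at 2143, 2549 and 2576 TPM against 261, 320.1 and 299 TPM. The monocyte, neutrophil and lymphocyte markers summed to 12.2 to 27.4 TPM in CNO libraries, against 2.35 to 6.69 TPM in untreated ones. The part of these cells in the chemokine values was not tested. Members called numbered 5, 1 and 2 without CNO 1, 2 and 3, and 6, 4 and 3 without untreated 1, 2 and 3. Without any 1 CNO library Ccl2, Ccl3, Ccl4 and Cxcl10 no longer passed the filter and were not tested. Beside the loss with no filter, alternatives ended the calls, with the adjusted p over all of them in brackets, of Ccl12 (4.5e-04 to 0.075, lost without CNO 2 or 3 or untreated 1, 2 or 3), Ccl2 (0.0053 to 0.095, lost without untreated 1, 2 or 3), Ccl3 (0.012 to 0.055, lost without untreated 3), Ccl4 (0.017 to 0.078, lost without untreated 1, 2 or 3), Ccl5 (0.0026 to 0.094, lost without CNO 2 or 3 or untreated 2 or with 0.1 as the pseudocount), Csf1 (0.015 to 0.16, lost without CNO 2 or 3 or untreated 1, 2 or 3 or with median-ratio scaling), Cxcl12 (0.020 to 0.10, lost without CNO 1 or 2 or untreated 2 or 3) and Tgfb1 (0.0067 to 0.059, lost without CNO 2 or 3 or untreated 3). The call of Cxcl16 held under every alternative, and that of Cxcl10 wherever it was tested.

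**Figure D2:**
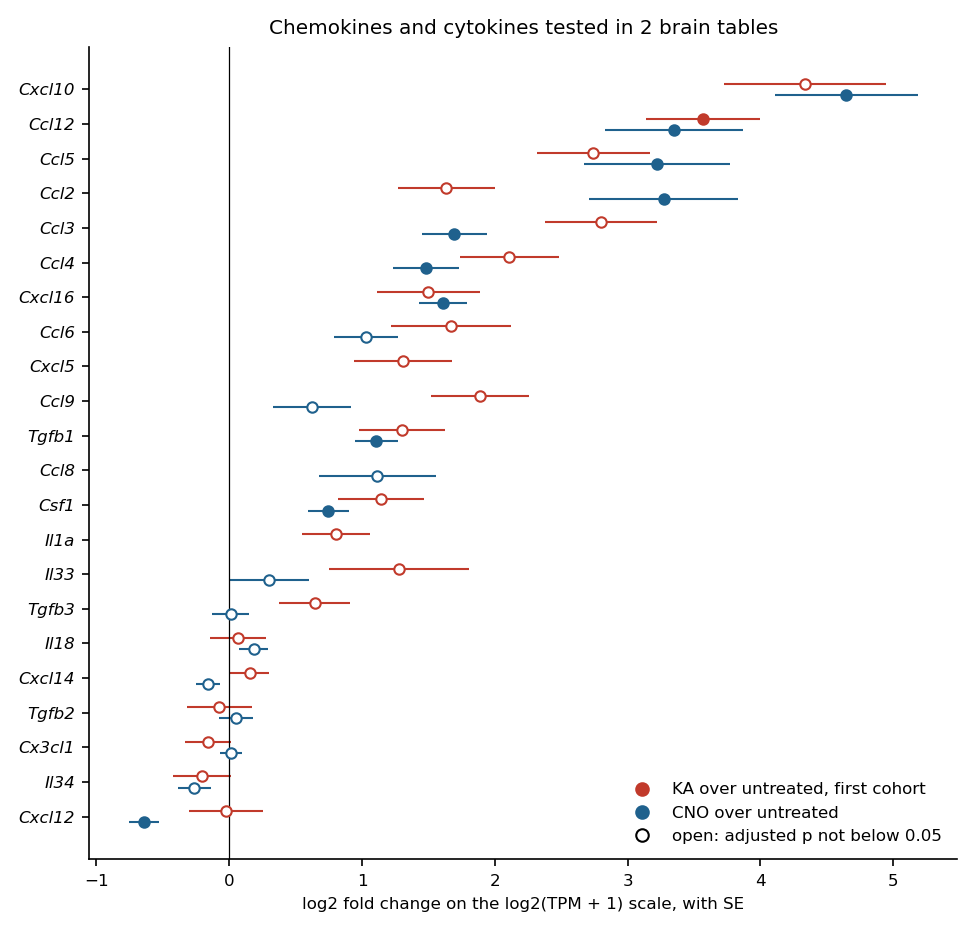
Log2 fold change ± SE on the log2(TPM + 1) scale for each chemokine and cytokine tested in the first KA cohort (KA over untreated, red) or the CNO set (CNO over untreated, blue), with open symbols where the adjusted p was not below 0.05. Filled symbols are Ccl12 alone in the first cohort and 9 higher members with Cxcl12 lower after CNO.

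In the second KA cohort, edgeR called 0 of the 30 members tested in each of 3 comparisons, and DESeq2 also called 0. The background was 0.0558% of genes for KA over untreated, 0.112% for APOE knock out with KA over KA (0.0815% lower), and 0.0386% for A2aR knock down with KA over KA, and at an unadjusted p under 0.05 edgeR had 3 members in each. The share of all genes at that unadjusted p is not given, so those 3 are a description. All 3 comparisons share the 4 KA libraries. Over the 34 members above 0 in some library the median difference on the log2(TPM + 1) scale was 0.14 for KA, −0.09 for the knockout and −0.12 for the knock down, against 0.00, −0.00 and −0.04 for 34040 such genes. Ccl12 stood at 1.83, 1.31 and 4.21 TPM in A2aR knock down libraries, 1.89, 0 and 0 TPM in APOE knock out libraries, 1.87, 15.9, 6.26 and 1.25 TPM in KA libraries and 0.197, 1.65 and 0 TPM in untreated libraries. KA 2 and 3 stood highest, and KA 1 and 4 lay near the untreated range (KA over untreated, log2 3.31 ± 1.61, adjusted p = 0.77, edgeR). Cxcl10 stood at 0.143, 0.237 and 0.851 TPM with the knock down, 0.137, 0.421 and 0.575 TPM with the knockout, 1.42, 0.0536, 1.08 and 3.73 TPM with KA and 0.639, 0.599 and 1.59 TPM untreated. The KA libraries overlapped each other group and included both the lowest and the highest value (KA over untreated, log2 0.44 ± 0.97, adjusted p = 0.99, knockout over KA, log2 -1.93 ± 1.03, adjusted p = 0.61). For Ccl2 KA and untreated libraries overlapped, at 0.239, 0 and 0.558 TPM with the knock down, 0.968, 0.604 and 0.942 TPM with the knockout, 0, 0.45, 0.621 and 1.59 TPM with KA and 0.631, 0.453 and 0 TPM untreated.

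Tgfb1 stood at 5.88, 5.69 and 8.34 TPM with the knock down, 7.41, 6.16 and 7.1 TPM with the knockout, 7.02, 5.07, 5.46 and 8.86 TPM with KA and 5.96, 4.74 and 4.36 TPM untreated. Csf1 stood at 17.9, 27 and 19.4 TPM with the knock down, 19.7, 21.2 and 23.5 TPM with the knockout, 27.8, 23.9, 28.7 and 17.5 TPM with KA and 20.2, 19.1 and 18.9 TPM untreated. For Tgfb1 (KA over untreated, log2 0.37 ± 0.23, adjusted p = 0.85) and Csf1 (log2 0.29 ± 0.16, adjusted p = 0.81) KA and untreated libraries overlapped. Cxcl12 lay at 18.4 to 26.4 TPM in all libraries given KA, against 18.4 to 22.7 TPM untreated. Il1b stood at 1.1, 0 and 0.322 TPM with the knock down, 0.168, 0.63 and 0.158 TPM with the knockout, 0.75, 1.78, 0.254 and 0.846 TPM with KA and 1.37, 1.17 and 0 TPM untreated, with overlap between all groups. Il6 was at most 0.454 TPM in libraries given KA, against 0.142 TPM untreated. Tnf had 0 counts in every knock down and knockout library, against 27, 27, 0 and 0 counts in KA libraries and 8, 12 and 0 counts in untreated libraries.

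For Cxcl16 every KA library lay above every untreated one, at 1.79, 1.54, 2.04 and 1.88 TPM in KA libraries, against 1.1, 0.969 and 0.585 TPM in untreated libraries (log2 1.15 ± 0.34, adjusted p = 0.54). The T cell chemokine Cxcl9 had 4, 13, 19 and 25 counts in KA libraries and 0 in each untreated library. These 2 members had no overlap in the higher direction, against 2.99% of genes, and Il11 alone had none in the lower, against 4.63% of genes. Il11 stood at 0.088, 0.124, 0.118 and 0.288 TPM in KA libraries, against 0.516, 1.07 and 0.386 TPM in untreated libraries (log2 -2.02 ± 0.71, adjusted p = 0.64). It also stood at 0.489, 0.361 and 0.466 TPM in knock down libraries, above every KA library (log2 1.56 ± 0.71, adjusted p = 0.53). That was the 1 member with no overlap in the higher direction for the knock down, against 1.87% of genes, and Ccl5 and Cxcl9 had none in the lower, against 7.18%. Those 2 are a share near that of all genes. For the knockout 0 members had no overlap in the higher direction, against 4.82% of genes, and Cxcl1 in the lower, against 5.03%.

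Cx3cl1 split within groups rather than between them. It stood at 360.3, 62.7 and 71.7 TPM in knock down libraries, 345, 343 and 352 TPM in knockout libraries, 57.7, 51.1, 361 and 59.3 TPM in KA libraries and 59.9, 50.8 and 347 TPM in untreated libraries. All 3 knockout libraries and 1 library of each other group were high, and the rest were low. The counts split alike, at 41728, 5402 and 5337 with the knock down, 35721, 39582 and 39742 with the knockout, 5185, 4438, 37893 and 4911 with KA and 5177, 4766 and 35735 untreated. In the other brain tables Cx3cl1 lay at 223 to 319.5 TPM. Knockout over KA it did not pass the test (log2 1.48 ± 0.94, adjusted p = 0.70). Il33, an alarmin of astrocytes and oligodendrocytes, stood at 64.3, 57.3 and 50.7 TPM in knockout libraries, against 79.5, 57.8, 74.8 and 93.4 TPM in KA libraries (log2 -0.41 ± 0.15, adjusted p = 0.45), and Tgfb2 at 24.6, 21.8 and 25.4 TPM against 21.5, 20.1, 23 and 21.1 TPM (log2 0.30 ± 0.10, adjusted p = 0.37). The antimicrobial chemokine Cxcl14 stood at 131, 90.8 and 101 TPM in knock down libraries, against 81.7, 97.4, 87.4 and 98.7 TPM in KA libraries (log2 0.23 ± 0.10, adjusted p = 0.51). None of the 3 passed, and their groups overlapped. Microglia markers summed to 708 to 888 TPM with the knock down, 657 to 705 TPM with the knockout, 706 to 1204 TPM with KA and 552 to 644 TPM untreated. The monocyte, neutrophil and lymphocyte markers summed to 2.58 to 5.43 TPM with the knock down and 2.14 to 3.43 TPM with the knockout, against 9.84 to 20.9 TPM with KA and 10.6 to 24.8 TPM untreated. Neither of the first 2 ranges reached the KA range, and the part of these markers in the member values was not tested. Of the receptor, NF-kB, JAK-STAT3, inflammasome and TGF-beta lists, edgeR called 0 genes in the 3 comparisons, with 6, 7, 4, 3 and 0 at an unadjusted p under 0.05 for KA over untreated. Those unadjusted counts also stand without the share of all genes.

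In cultured astrocytes Csf1 had the highest level of the members in wild-type untreated libraries, at 380.1 to 386 TPM, followed by Tgfb3 at 108 to 113, Cxcl14 at 93.4 to 97.5, Cx3cl1 at 69 to 76.5, and Tgfb2 and Cxcl12, which overlapped, at 32.8 to 36.1 and 29.8 to 36.2 TPM. Of the 37 members 30 passed the filter over the 27 libraries, and all 9 groups were fitted together. The untested ones were Ccl8, Ccl11, Cxcl3, Cxcl5, Cxcl9, Il1b and Csf3, of which Ccl11 was listed at 0 in all libraries. A single library stood apart. Knockout oleic acid 1 held 266 TPM of Ccl2, against 14.2 and 12.8 TPM in knockout oleic acid 2 and 3, and 13.4 TPM of Il1b, against 0.44 and 0.24 TPM. Because all groups share an estimate of spread, calls in every astrocyte comparison are also given without it, an alternative chosen after seeing the data.

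**Figure D3:**
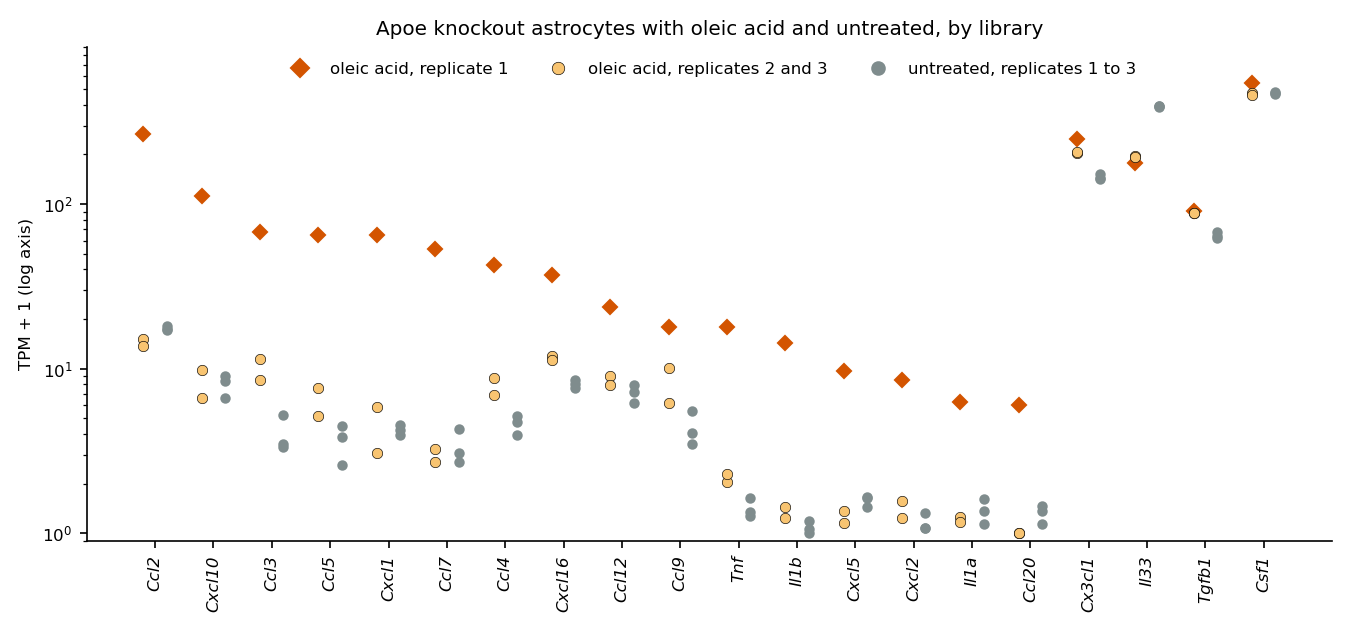
Levels of 20 chemokines and cytokines in Apoe knockout astrocytes, as TPM + 1 on a log axis, with a diamond for oleic acid library 1, circles for oleic acid libraries 2 and 3, and grey points for untreated libraries. Inflammatory members such as Ccl2, Cxcl10, Il1b and Cxcl5 are far higher in oleic acid library 1 than in libraries 2 and 3, while Il33, Tgfb1 and Csf1 are at like levels in all 3.

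Without treatment, knockout astrocytes differed from wild-type astrocytes most in Il33 and Tgfb1. Il33 stood at 389, 392 and 393 TPM in knockout libraries, against 5.33, 4.7 and 5.67 TPM in wild-type libraries. The groups lay far apart and Il33 rose (log2 5.98 ± 0.13, adjusted p = 7.1e-19, limma). Tgfb1 rose to 61.6, 63 and 67.1 TPM in knockout libraries, against 12.8, 14.4 and 13.2 TPM in wild-type libraries (log2 2.17 ± 0.09, adjusted p = 2.2e-14). Cxcl12 rose to 71, 68.7 and 72 TPM in knockout libraries, against 36.2, 31.7 and 29.8 TPM in wild-type libraries (log2 1.10 ± 0.08, adjusted p = 2.4e-10). Cx3cl1 rose to 143, 140.0 and 152 TPM in knockout libraries, against 72.2, 76.5 and 69 TPM in wild-type libraries (log2 0.99 ± 0.07, adjusted p = 2.8e-10). These 3 had no overlap between genotypes. Csf1 rose to 464, 474 and 476 TPM in knockout libraries, against 386, 383 and 380.1 TPM in wild-type libraries (log2 0.30 ± 0.06, adjusted p = 4.6e-04). Il11, a cytokine of the Il6 family, rose to 2.23, 1.74 and 3.17 TPM in knockout libraries, against 0.50, 0.75 and 0.77 TPM in wild-type libraries (log2 1.00 ± 0.22, adjusted p = 7.0e-04).

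Cxcl14 fell to 37.6, 38.4 and 39.8 TPM in knockout libraries, against 93.4, 95 and 97.5 TPM in wild-type libraries (log2 -1.28 ± 0.07, adjusted p = 1.6e-12). Tgfb2 fell to 18.7, 18.4 and 15.9 TPM in knockout libraries, against 33.7, 32.8 and 36.1 TPM in wild-type libraries (log2 -0.91 ± 0.12, adjusted p = 1.2e-06). Neither overlapped between genotypes. Il1rn, Ccl12, Tgfb3, Cxcl1 and Ccl2 were also called higher and Il34 lower. Ccl2 stood at 17.1, 16.4 and 16.2 TPM in knockout libraries, against 4.15, 6.0 and 3.71 TPM in wild-type libraries (log2 1.67 ± 0.66, adjusted p = 0.045). Cxcl10 stood at 8.06, 5.64 and 7.35 TPM in knockout libraries, against 16.3, 16.7 and 15.9 TPM in wild-type libraries (log2 -1.12 ± 0.58, adjusted p = 0.12). These 2 chemokines stood on opposite sides, Ccl2 above and Cxcl10 below every wild-type library. Il6 stood at 1.65, 1.16 and 1.27 TPM in knockout libraries, against 0.61, 0.92 and 0.44 TPM in wild-type libraries (log2 0.52 ± 0.31, adjusted p = 0.19), and Tnf at 0.27, 0.63 and 0.35 TPM against 0.46, 0.17 and 0.89 TPM (log2 -0.07 ± 0.47, adjusted p = 0.92).

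In all 11 members were higher and 3 lower of the 30 tested, against a background of 44.9% of genes called, 23.9% higher and 21.1% lower. Taken in either direction, the members called were a share near that of all genes. Without knockout oleic acid 1, 12 were higher and 6 lower, with Ccl3, Ccl5, Cxcl10 and Il1a added, and all genes called went from 7258 to 7347. Leaving out 1 library ended the calls, with the adjusted p over all alternatives in brackets, of Ccl2 (8.4e-06 to 0.11) and Cxcl1 (9.5e-05 to 0.11) for each of the 6 libraries of the groups compared, and these 2 were also lost with median-ratio scaling, without a filter and with a replicate block. The call of Il34 (0.0034 to 0.060) was lost without knockout untreated 2. Astrocyte markers summed to 449.9 to 464 TPM in knockout libraries, against 2069 to 2321 TPM in wild-type libraries, with all 8 called lower, and microglia markers to 449 to 482 TPM against 534 to 589.8 TPM, with 7 of 13 called lower. Their part in the results was not tested. Of 26 receptor genes 9 were higher and 5 lower, among them Tnfrsf1b (1.87 log2) and Cx3cr1 (-0.85). Of 23 NF-kB genes 13 were higher and 3 lower, with Nfkb2 at 1.15 log2 and Irak3, an inhibitor of the pathway, at 1.14, and of 20 TGF-beta genes 13 were higher and 2 lower.

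With neuronal conditional medium no member and few of all genes passed the test in wild-type astrocytes, and several members fell in knockout astrocytes. In wild-type astrocytes limma called 0 of 30 members, against a background of 0.0371% of genes. At an unadjusted p under 0.05 there were 2, a count given without the share of all genes. Those 2 were Cxcl12, at 22, 27.2 and 24.2 TPM with medium, against 36.2, 31.7 and 29.8 TPM untreated (log2 -0.40 ± 0.08, adjusted p = 0.11), and Lif, at 6.48, 7.29 and 8.97 TPM, against 10.3, 11.6 and 12.4 TPM untreated (log2 -0.54 ± 0.17, adjusted p = 0.40). For both genes each medium library lay below every untreated one. Every medium library lay above every untreated one for 3 members, against 8.66% of genes, and below for 5, against 6.2%. Without wild-type medium 2 there was 1 member called. In knockout astrocytes Il33 fell to 60.1, 61.3 and 62.5 TPM with medium, against 389, 392 and 393 TPM untreated (log2 -2.65 ± 0.13, adjusted p = 1.6e-12). Cxcl12 fell to 30.2, 31.4 and 27.2 TPM with medium, against 71, 68.7 and 72 TPM untreated (log2 -1.23 ± 0.08, adjusted p = 1.2e-10). Tgfb1 fell to 25.8, 23.9 and 21.9 TPM with medium, against 61.6, 63 and 67.1 TPM untreated (log2 -1.39 ± 0.09, adjusted p = 1.3e-10). All 3 had been higher in untreated knockout than in untreated wild-type libraries.

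Cxcl14 rose to 63.1, 61.6 and 64.6 TPM with medium, against 37.6, 38.4 and 39.8 TPM untreated, in knockout astrocytes (log2 0.70 ± 0.07, adjusted p = 8.4e-08). Tgfb2 rose to 31.6, 34.5 and 34.1 TPM with medium, against 18.7, 18.4 and 15.9 TPM untreated (log2 0.88 ± 0.12, adjusted p = 3.9e-06). Both had been lower in untreated knockout than in untreated wild-type libraries. Ccl12 fell to 0.49, 1.28 and 0.55 TPM with medium, against 6.19, 6.89 and 5.18 TPM untreated (log2 -2.02 ± 0.38, adjusted p = 2.7e-04). Il11 fell to 0.97, 1.28 and 0.31 TPM with medium, against 2.23, 1.74 and 3.17 TPM untreated (log2 -0.88 ± 0.22, adjusted p = 0.0032), and Il1rn to 0.29, 1.47 and 0.39 TPM, against 4.1, 3.36 and 2.15 TPM (log2 -1.33 ± 0.35, adjusted p = 0.0055). None of these overlapped. Ccl2 fell to 3.78, 3.55 and 4.27 TPM with medium, against 17.1, 16.4 and 16.2 TPM untreated (log2 -1.85 ± 0.66, adjusted p = 0.036), and Cx3cl1 was also called lower. In all 2 members were higher and 8 lower, against a background of 31.2% of genes called, 18.7% higher and 12.6% lower. Taken in either direction, the members called were a share near that of all genes. With only the 2 groups compared 16 were called, and without knockout oleic acid 1 also 16, 3 higher and 13 lower. Without that library all genes called went from 5049 to 5173. Calls that an alternative ended, with the adjusted p over all of them in brackets, were those of Ccl2 (3.9e-06 to 0.086, lost without knockout medium 1, 2 or 3 or knockout untreated 1, 2 or 3 or with no filter) and Cx3cl1 (0.0078 to 0.13, lost without knockout medium 3 or knockout untreated 3 or with median-ratio scaling). Astrocyte markers summed to 1117 to 1212 TPM with medium, against 449.9 to 464 TPM untreated, with all 8 called higher, and microglia markers to 334 to 344 TPM, against 449 to 482 TPM, with 8 of 13 called lower, and their part was not tested.

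By the genotype by medium interaction, 2 members were higher and 5 lower in knockout relative to wild-type astrocytes. Taken in either direction, that was a share near the background of 18.5% of genes. Il33 (log2 -2.57 ± 0.19, adjusted p = 2.4e-09), Tgfb1 (log2 -1.21 ± 0.13, adjusted p = 6.1e-07) and Cxcl12 (log2 -0.83 ± 0.11, adjusted p = 1.7e-05) were among the lower ones. In the wild-type medium group Il33 stood at 5.65, 4.75 and 4.24 TPM, against 5.33, 4.7 and 5.67 TPM in wild-type untreated libraries, and Tgfb1 at 12.5, 11.6 and 11.2 TPM, against 12.8, 14.4 and 13.2 TPM. Neither passed the test in wild-type astrocytes.

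Medium from APOE KO neurons, set against medium from neurons on wild-type astrocytes, raised Ccl3 and Ccl4. Ccl3 stood at 27.2, 30.7 and 30.6 TPM with medium from knockout neurons, against 5.79, 5.74 and 4.66 TPM with medium from neurons (log2 2.26 ± 0.44, adjusted p = 0.0089). Ccl4 stood at 21.2, 23 and 19.9 TPM against 4.56, 4.03 and 3.61 TPM with medium from neurons (log2 2.14 ± 0.42, adjusted p = 0.0097). The groups of both genes lay far apart. Cx3cl1 rose to 83.8, 90.4 and 87.4 TPM with medium from knockout neurons, against 61.1, 66 and 68.9 TPM (log2 0.41 ± 0.07, adjusted p = 0.0042). Tgfb1 rose to 17.3, 14.7 and 15.9 TPM against 12.5, 11.6 and 11.2 TPM with medium from neurons (log2 0.41 ± 0.09, adjusted p = 0.027), and Cxcl12 to 27.8, 34.1 and 31.2 TPM against 22, 27.2 and 24.2 TPM (log2 0.33 ± 0.08, adjusted p = 0.042). Il33 fell to 2.64, 2.51 and 2.86 TPM with medium from knockout neurons, against 5.65, 4.75 and 4.24 TPM (log2 -0.67 ± 0.13, adjusted p = 0.0094). None of these overlapped. Ccl2 stood at 12.1, 11.7 and 9.72 TPM with medium from knockout neurons, against 3.46, 5.6 and 4.92 TPM (log2 1.12 ± 0.66, adjusted p = 0.52), Cxcl10 at 31.2, 35 and 30.0 TPM against 17, 20.4 and 13.8 TPM (log2 0.89 ± 0.58, adjusted p = 0.58), and Tnf at 4.24, 2.9 and 3.25 TPM against 0.79, 0.63 and 0.61 TPM (log2 1.40 ± 0.47, adjusted p = 0.17). In these 3 every library with medium from knockout neurons was higher, and none passed with all libraries.

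In all 5 members were higher and 1 lower, against a background of 1.42% of genes called, 0.965% higher and 0.452% lower. For 13 members every library with medium from knockout neurons was above every library with medium from neurons, against 11.0% of genes, and for 3 below, against 12.1%. Without knockout oleic acid 1, 11 were higher and 1 lower, adding Ccl2, Ccl9, Cxcl1, Cxcl10, Cxcl16 and Tnf, and all genes called went from 229 to 318. With median-ratio scaling 3 were called, and Cx3cl1, Cxcl12 and Tgfb1 no longer were. Alternatives ended the calls, with the adjusted p over all of them in brackets, of Ccl4 (8.4e-06 to 0.065, lost with 0.1 as the pseudocount), Cx3cl1 (6.3e-04 to 0.062, lost with median-ratio scaling), Cxcl12 (0.020 to 0.25, lost without wild-type knockout-neuron medium 2 or 3 or wild-type medium 1 or 3 or with median-ratio scaling or with no filter or with only the groups compared or with 0.1 as the pseudocount), Il33 (2.2e-04 to 0.079, lost without wild-type medium 1 or with only the groups compared) and Tgfb1 (0.025 to 0.22, lost without wild-type knockout-neuron medium 1 or 3 or wild-type medium 1, 2 or 3 or with median-ratio scaling or with only the groups compared). Microglia markers summed to 577 to 659.9 TPM with medium from knockout neurons, against 496 to 575 TPM, with 3 of 13 called higher, and their part was not tested. Among the receptors Tnfrsf1b (0.32 log2) and Cx3cr1 (0.35) were called higher and Ccr1 (-0.42) lower.

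**Figure D4:**
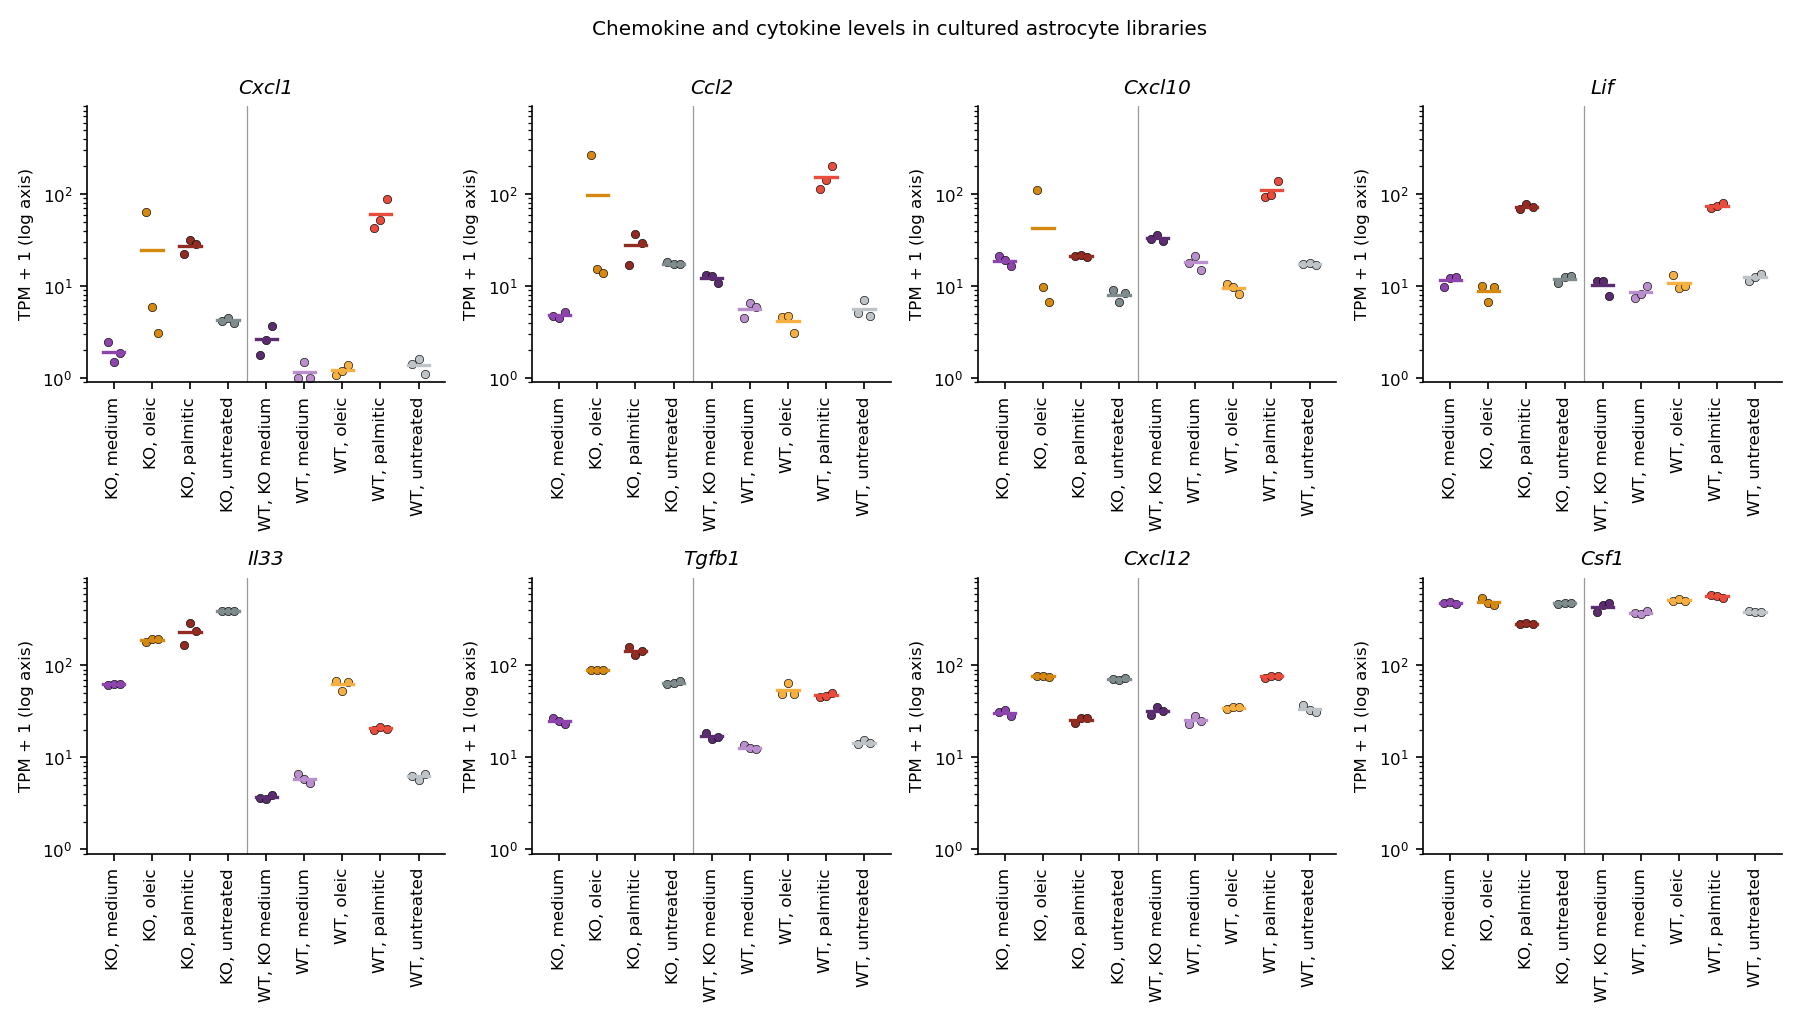
Levels of 8 chemokines and cytokines in the 9 astrocyte groups, as TPM + 1 on a log axis, with points for libraries and a bar for the group mean, Apoe knockout groups on the left and wild-type groups on the right. Il33 and Tgfb1 are higher in each knockout group than in untreated wild-type astrocytes, and Cxcl1, Ccl2 and Lif are high in wild-type palmitic acid libraries.

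With oleic acid, a monounsaturated fatty acid, Il33 and Tgfb1 stood higher than in untreated wild-type astrocytes. Il33 rose to 66.6, 52 and 65.3 TPM with oleic acid, against 5.33, 4.7 and 5.67 TPM untreated (log2 3.32 ± 0.13, adjusted p = 1.6e-14). Tgfb1 rose to 47.8, 62.6 and 48.4 TPM with oleic acid, against 12.8, 14.4 and 13.2 TPM untreated (log2 1.89 ± 0.09, adjusted p = 4.2e-13). Cx3cl1 rose to 111, 127 and 114 TPM with oleic acid, against 72.2, 76.5 and 69 TPM untreated (log2 0.68 ± 0.07, adjusted p = 8.7e-08). All 3 were clear of the untreated range. Csf1 rose to 499, 527 and 502 TPM with oleic acid, against 386, 383 and 380.1 TPM untreated (log2 0.41 ± 0.06, adjusted p = 9.4e-06). Tgfb3 also rose (log2 0.25 ± 0.07, adjusted p = 0.0055). Cxcl14 fell to 39.4, 44 and 36.8 TPM with oleic acid, against 93.4, 95 and 97.5 TPM untreated (log2 -1.23 ± 0.07, adjusted p = 5.2e-12). Tgfb2 fell to 12.1, 9.09 and 11.3 TPM with oleic acid, against 33.7, 32.8 and 36.1 TPM untreated (log2 -1.58 ± 0.12, adjusted p = 3.3e-10). Ccl4 fell to 1.2, 0.81 and 0.32 TPM with oleic acid, against 6.84, 5.0 and 3.23 TPM untreated (log2 -1.75 ± 0.42, adjusted p = 0.0013), and Il34 fell as well.

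Inflammatory chemokines were not called higher with oleic acid in wild-type astrocytes. Ccl2 stood at 3.65, 3.74 and 2.09 TPM with oleic acid, against 4.15, 6.0 and 3.71 TPM untreated (log2 -0.44 ± 0.66, adjusted p = 0.59). Cxcl10 stood at 9.41, 8.86 and 7.15 TPM with oleic acid, against 16.3, 16.7 and 15.9 TPM untreated (log2 -0.88 ± 0.58, adjusted p = 0.20). Every oleic acid library lay below every untreated one for Cxcl10 and not for Ccl2. Cxcl12 overlapped (log2 0.06 ± 0.08, adjusted p = 0.57). In all 5 members were higher and 4 lower, against a background of 59.8% of genes called, 31.2% higher and 28.6% lower. Without knockout oleic acid 1, 5 were higher and 7 lower, with Ccl3, Ccl7 and Cxcl10 added among the lower, and all genes called went from 9669 to 9702. Leaving out 1 library ended the call, with the adjusted p over all alternatives in brackets, of Il34 (0.0055 to 0.056, lost without wild-type oleic acid 1 or 3). Of 26 receptor genes 9 were higher and 6 lower, with Tnfrsf1b at 2.07 log2 and Tgfbr2 at 1.11. Of 23 NF-kB genes 11 were higher and 0 lower, with Nfkb2 at 1.17 log2 and Myd88 at 0.83. Microglia markers summed to 985 to 1109 TPM with oleic acid, against 534 to 589.8 TPM untreated, and astrocyte markers to 1037 to 1064 TPM, against 2069 to 2321 TPM. The mitochondrial share of TPM was 2.96% to 3.98% with oleic acid, against 5.52% to 6.83% untreated, and the part of these measures was not tested.

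In knockout astrocytes oleic acid went with higher Ccl3, Ccl4, Ccl5, Cxcl16 and Tnf, genes whose 3 libraries were far apart, and the calls of Ccl4, Ccl5, Cxcl16 and Tnf were lost with only the 2 groups compared. Ccl3 stood at 66.7, 7.51 and 10.5 TPM with oleic acid, against 2.5, 4.23 and 2.34 TPM untreated (log2 2.25 ± 0.44, adjusted p = 4.5e-04). Tnf stood at 16.8, 1.05 and 1.27 TPM with oleic acid, against 0.27, 0.63 and 0.35 TPM untreated (log2 1.63 ± 0.47, adjusted p = 0.0088). Cxcl16 stood at 35.9, 10.9 and 10.3 TPM with oleic acid, against 7.01, 7.48 and 6.6 TPM untreated (log2 1.09 ± 0.27, adjusted p = 0.0033). Library 1 was highest for each, and libraries 2 and 3 still lay above the untreated range. Ccl4 stood at 41.3, 5.88 and 7.71 TPM with oleic acid, against 4.12, 3.76 and 2.97 TPM untreated (log2 1.57 ± 0.42, adjusted p = 0.0060). Ccl2 stood at 266, 14.2 and 12.8 TPM with oleic acid, against 17.1, 16.4 and 16.2 TPM untreated (log2 1.12 ± 0.66, adjusted p = 0.18), and Cxcl10 at 110.1, 8.84 and 5.63 TPM, against 8.06, 5.64 and 7.35 TPM untreated (log2 1.28 ± 0.58, adjusted p = 0.079). For both, library 1 was far above every untreated library, while Ccl2 in libraries 2 and 3 lay below every untreated one and Cxcl10 in library 3 did.

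Members at like levels in the 3 oleic acid libraries changed too. Cxcl14 rose to 59.4, 69.1 and 69.8 TPM with oleic acid, against 37.6, 38.4 and 39.8 TPM untreated (log2 0.76 ± 0.07, adjusted p = 1.0e-07). Cx3cl1 rose to 247, 202 and 207 TPM, against 143, 140.0 and 152 TPM untreated (log2 0.58 ± 0.07, adjusted p = 4.5e-06), and Tgfb1 to 89.1, 87.2 and 87.7 TPM, against 61.6, 63 and 67.1 TPM untreated (log2 0.46 ± 0.09, adjusted p = 6.0e-04). Il33 fell to 177, 194 and 191 TPM with oleic acid, against 389, 392 and 393 TPM untreated (log2 -1.06 ± 0.13, adjusted p = 3.9e-06), and Tgfb2 to 10.2, 13.1 and 12.2 TPM, against 18.7, 18.4 and 15.9 TPM untreated (log2 -0.55 ± 0.12, adjusted p = 0.0010). Il33 thus moved in opposite directions with oleic acid in knockout and wild-type astrocytes, with an interaction of log2 -4.38 ± 0.19, adjusted p = 1.8e-13. Cxcl14 did so in reverse (interaction log2 1.99 ± 0.10, adjusted p = 1.8e-12), as did Ccl4 (log2 3.32 ± 0.60, adjusted p = 2.1e-04). In all 11 members were higher and 3 lower with oleic acid in knockout astrocytes, against a background of 41.8% of genes called, 21.7% higher and 20.1% lower. Taken in either direction, the members called were a share near that of all genes. Without oleic acid 1, 8 were higher and 3 lower, and Ccl6, Ccl9 and Cxcl2 were no longer called, while all genes called went from 6749 to 5962. With only the 2 groups compared 7 were called. Calls that an alternative ended, with the adjusted p over all of them in brackets, were those of Ccl4 (9.5e-04 to 0.071, lost with only the groups compared), Ccl5 (6.5e-04 to 0.10, lost with only the groups compared), Ccl6 (0.0088 to 0.16, lost without knockout oleic acid 1 or knockout untreated 1 or with no filter or with only the groups compared), Ccl9 (0.0015 to 0.053, lost without knockout oleic acid 1), Cxcl16 (7.0e-04 to 0.066, lost with only the groups compared), Cxcl2 (0.0049 to 0.37, lost without knockout oleic acid 1 or knockout untreated 1, 2 or 3 or with no filter), Lif (0.019 to 0.19, lost without knockout oleic acid 2 or knockout untreated 2 or 3 or with no filter or with only the groups compared) and Tnf (0.0014 to 0.12, lost with only the groups compared). By the oleic acid interaction 6 members were higher and 3 lower, against a background of 29.6% of genes, and 16 were called without knockout oleic acid 3. Those that an alternative ended were Ccl5 (0.0018 to 0.092, lost without knockout untreated 2 or with only the groups compared), Csf1 (4.6e-04 to 0.094, lost with median-ratio scaling) and Cxcl16 (0.0050 to 0.098, lost without knockout untreated 3 or wild-type oleic acid 3 or wild-type untreated 1 or 3 or with no filter or with only the groups compared). Microglia markers summed to 1246 to 1338 TPM with oleic acid, against 449 to 482 TPM untreated, with 11 of 13 called higher. The mitochondrial share was 4.04% to 4.53% with oleic acid, against 6.41% to 6.64% untreated, and the part of both was not tested.

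With palmitic acid, a saturated fatty acid, most members stood higher than in untreated wild-type astrocytes. The neutrophil chemokine Cxcl1 rose to 41.8, 51.8 and 87.7 TPM with palmitic acid, against 0.42, 0.60 and 0.11 TPM untreated (log2 5.43 ± 0.64, adjusted p = 2.1e-07). Ccl2 rose to 113, 140.4 and 199.8 TPM with palmitic acid, against 4.15, 6.0 and 3.71 TPM untreated (log2 4.74 ± 0.66, adjusted p = 2.1e-06). Cxcl10 rose to 91.1, 97.1 and 138 TPM with palmitic acid, against 16.3, 16.7 and 15.9 TPM untreated (log2 2.64 ± 0.58, adjusted p = 4.5e-04). For all 3 palmitic acid 3 was the highest library and no library overlapped. Cytokines that signal to Stat3 rose with them. Lif rose to 70.2, 72.6 and 79.8 TPM with palmitic acid, against 10.3, 11.6 and 12.4 TPM untreated (log2 2.60 ± 0.17, adjusted p = 1.3e-11). Il11 rose to 16.2, 17.8 and 21.9 TPM, against 0.50, 0.75 and 0.77 TPM untreated (log2 3.55 ± 0.22, adjusted p = 6.5e-12), and Il6 to 3.37, 4.04 and 3.62 TPM, against 0.61, 0.92 and 0.44 TPM untreated (log2 1.50 ± 0.31, adjusted p = 2.4e-04). No library of these 3 overlapped.

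Csf2, a growth factor of granulocytes and macrophages, rose to 6.54, 8.63 and 12.4 TPM with palmitic acid, against 0, 0.13 and 0 TPM untreated (log2 3.25 ± 0.17, adjusted p = 5.4e-13). Csf1 rose to 586, 573 and 547 TPM with palmitic acid, against 386, 383 and 380.1 TPM untreated (log2 0.57 ± 0.06, adjusted p = 7.2e-08). Ccl6 rose to 18, 17.8 and 20.4 TPM with palmitic acid, against 1.87, 2.07 and 1.28 TPM untreated (log2 2.86 ± 0.18, adjusted p = 7.3e-12). These 3 were separated from the untreated libraries too. Csf2 passed the filter through palmitic acid libraries alone, so its calls are given as a description. Cxcl12 rose to 72.9, 75.9 and 75.9 TPM, against 36.2, 31.7 and 29.8 TPM untreated (log2 1.18 ± 0.08, adjusted p = 4.2e-11). Il33 rose to 18.6, 20.7 and 19.6 TPM, against 5.33, 4.7 and 5.67 TPM untreated (log2 1.73 ± 0.13, adjusted p = 2.5e-10). The 3 Tgfb genes did not move together. Tgfb1 rose to 44, 45.3 and 49.1 TPM with palmitic acid, against 12.8, 14.4 and 13.2 TPM untreated (log2 1.70 ± 0.09, adjusted p = 8.3e-13). Tgfb3 fell to 44.7, 39 and 32 TPM, against 111, 113 and 108 TPM untreated (log2 -1.51 ± 0.07, adjusted p = 1.0e-13), and Tgfb2 fell to 15, 16.7 and 13.3 TPM, against 33.7, 32.8 and 36.1 TPM untreated (log2 -1.14 ± 0.12, adjusted p = 2.7e-08). Tnf stood at 1.67, 1.81 and 2.0 TPM with palmitic acid, against 0.46, 0.17 and 0.89 TPM untreated (log2 0.93 ± 0.47, adjusted p = 0.092), and the untested Il1b at 0.88, 0.68 and 1.7 TPM, against 0.13, 0 and 0.14 TPM untreated.

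In all 24 members were higher and 3 lower of the 30 tested, against a background of 59.8% of genes called, 26.8% higher and 33.1% lower. Csf2 is counted among the 24 as a description. Each palmitic acid library lay above each untreated one for 26 members, against 30.4% of genes, and below for 3, against 38.6%. Over the 36 members above 0 the median difference was 1.46 on the log2(TPM + 1) scale, against 0.00 for all such genes. Those not called were Tnf, Cxcl16 and Il18. Without knockout oleic acid 1 Tnf and Cxcl16 were also called higher, and all genes called went from 9668 to 9729. Alternatives ended the calls, with the adjusted p over all of them in brackets, of Ccl4 (1.0e-04 to 0.075, lost without wild-type untreated 3), Ccl5 (3.1e-05 to 0.13, lost without wild-type palmitic acid 3 or wild-type untreated 1, 2 or 3 or with no filter) and Il34 (0.0016 to 0.089, lost without wild-type palmitic acid 1 or 3 or wild-type untreated 1 or 3 or with no filter). Of 23 NF-kB genes 16 were higher and 1 lower, with the subunits Relb at 2.37 log2, Nfkb2 at 1.91 and Rela at 0.99, and Traf1 at -2.30, and their median was 0.86. Of 26 receptor genes 9 were higher and 12 lower, with the Il33 receptor Il1rl1 at 3.06 log2, Ccr1, a receptor of Ccl3 and Ccl5, at 2.67, and the Cxcl12 receptor Cxcr4 at -2.06. Of 14 JAK-STAT3 genes 8 were higher and 5 lower, with Stat3 at -0.75 log2. Of 9 inflammasome genes 4 were higher and 0 lower, with Casp4 at 2.35 log2 and Nlrp3 at 0.76. Microglia markers summed to 1064 to 1190.3 TPM with palmitic acid, against 534 to 589.8 TPM untreated, with 9 of 13 called higher and 3 lower. Astrocyte markers summed to 615 to 759 TPM, against 2069 to 2321 TPM untreated, with all 8 called lower. The mitochondrial share was 3.48% to 4.17% with palmitic acid, against 5.52% to 6.83% untreated, and the part of these measures in the results was not tested.

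In knockout astrocytes palmitic acid raised a smaller group of members and lowered another. Lif rose to 67.1, 77.5 and 70.8 TPM with palmitic acid, against 9.74, 11.6 and 12 TPM untreated (log2 2.59 ± 0.17, adjusted p = 8.2e-12). Tgfb1 rose to 158, 129 and 142 TPM with palmitic acid, against 61.6, 63 and 67.1 TPM untreated (log2 1.15 ± 0.09, adjusted p = 3.7e-10). Csf2 stood at 2.77, 3.64 and 3.44 TPM with palmitic acid, while it was listed at 0 in the 3 untreated libraries (adjusted p = 4.9e-10, again a description). All 3 were above every untreated library. Cxcl1 rose to 21.1, 30.7 and 28.1 TPM, against 3.21, 3.55 and 2.95 TPM untreated (log2 2.69 ± 0.64, adjusted p = 7.1e-04). Il6 rose to 2.27, 9.51 and 6.93 TPM, against 1.65, 1.16 and 1.27 TPM untreated (log2 1.46 ± 0.31, adjusted p = 2.2e-04). Cxcl10 rose to 20.3, 20.6 and 19.8 TPM, against 8.06, 5.64 and 7.35 TPM untreated (log2 1.42 ± 0.58, adjusted p = 0.031). Palmitic acid 1 was the lowest of the 3 for Cxcl1 and Il6. Ccl2 stood at 16, 35.8 and 28.5 TPM with palmitic acid, against 17.1, 16.4 and 16.2 TPM untreated (log2 0.59 ± 0.66, adjusted p = 0.43), and palmitic acid 1 lay below every untreated library.

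Tgfb3 fell to 22.6, 23.9 and 22.8 TPM with palmitic acid, against 134, 130.0 and 132 TPM untreated (log2 -2.47 ± 0.07, adjusted p = 1.3e-17). Cxcl14 fell to 8.21, 8.06 and 7.2 TPM with palmitic acid, against 37.6, 38.4 and 39.8 TPM untreated (log2 -2.17 ± 0.07, adjusted p = 8.1e-17). Cxcl12 fell to 22.7, 25.8 and 25.5 TPM with palmitic acid, against 71, 68.7 and 72 TPM untreated (log2 -1.48 ± 0.08, adjusted p = 5.7e-13). No palmitic acid library of these 3 reached the untreated range. Cx3cl1 fell to 55.4, 53 and 55.9 TPM, against 143, 140.0 and 152 TPM untreated (log2 -1.39 ± 0.07, adjusted p = 3.5e-13), and Tgfb2 to 3.35, 5.01 and 4.36 TPM, against 18.7, 18.4 and 15.9 TPM untreated (log2 -1.84 ± 0.12, adjusted p = 7.7e-12). Ccl12 fell to 0, 0.25 and 0 TPM, against 6.19, 6.89 and 5.18 TPM untreated (log2 -2.71 ± 0.38, adjusted p = 1.8e-06). Csf1 stood at 279.7, 288 and 282 TPM with palmitic acid, against 464, 474 and 476 TPM untreated, and was called lower (log2 -0.73 ± 0.06, adjusted p = 9.1e-10) but not with median-ratio scaling (log2 -0.17, adjusted p = 0.083). Tnf stood at 0.040, 0.090 and 0.090 TPM, against 0.27, 0.63 and 0.35 TPM untreated (log2 -0.39 ± 0.47, adjusted p = 0.45).

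In all 11 members were higher and 12 lower, against a background of 75.3% of genes called, 19.9% higher and 55.4% lower. Taken in either direction, the members called were a share near that of all genes. Over all genes tested the median was −0.47 log2, and −0.08 with median-ratio scaling, under which 11 members were higher and 10 lower, without Csf1 and Il34, and all genes split into 5759 higher and 6260 lower in place of 3222 and 8946. Without knockout oleic acid 1, 13 members were higher and 15 lower, adding Ccl2, Ccl3, Ccl7, Il1a and Tnf, and all genes called went from 12168 to 12235. Calls that an alternative ended, with the adjusted p over all of them in brackets, were those of Ccl20 (2.6e-04 to 0.16, lost without knockout palmitic acid 2 or 3 or knockout untreated 1 or 3 or with no filter or with 0.1 as the pseudocount), Csf1 (2.0e-10 to 0.083, lost with median-ratio scaling), Cxcl10 (2.1e-07 to 0.085, lost without knockout palmitic acid 1, 2 or 3 or knockout untreated 2 or 3 or with no filter), Cxcl16 (3.3e-05 to 0.094, lost without knockout palmitic acid 1 or knockout untreated 1 or 3 or with no filter) and Il34 (2.7e-04 to 0.44, lost with median-ratio scaling). Of 26 receptor genes 2 were higher and 19 lower, with Cxcr4 at -3.02 log2, Csf1r at -3.01 and Cx3cr1 at -2.89. Of 23 NF-kB genes 10 were higher and 6 lower, with Nfkb2 at 1.46 log2 and Rela at 0.90, and of 9 inflammasome genes 0 were higher and 5 lower. All 13 microglia markers were called lower, summing to 111 to 122 TPM with palmitic acid, against 449 to 482 TPM untreated, and P2ry12 was listed at 0 in the 3 palmitic acid libraries. All 8 astrocyte markers were called lower, summing to 45.7 to 58.1 TPM with palmitic acid, against 449.9 to 464 TPM untreated, and those of mural cells and fibroblasts summed to 939 to 1058 TPM, against 6231 to 6341 TPM. The mitochondrial share of TPM was 1.51% to 2.94% with palmitic acid, against 6.41% to 6.64% untreated, and 18598 to 19878 genes were above 0, fewest in palmitic acid 1, against 21646 to 22133 untreated. The part of the cell markers and of these library measures in the results was not tested.

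**Figure D5:**
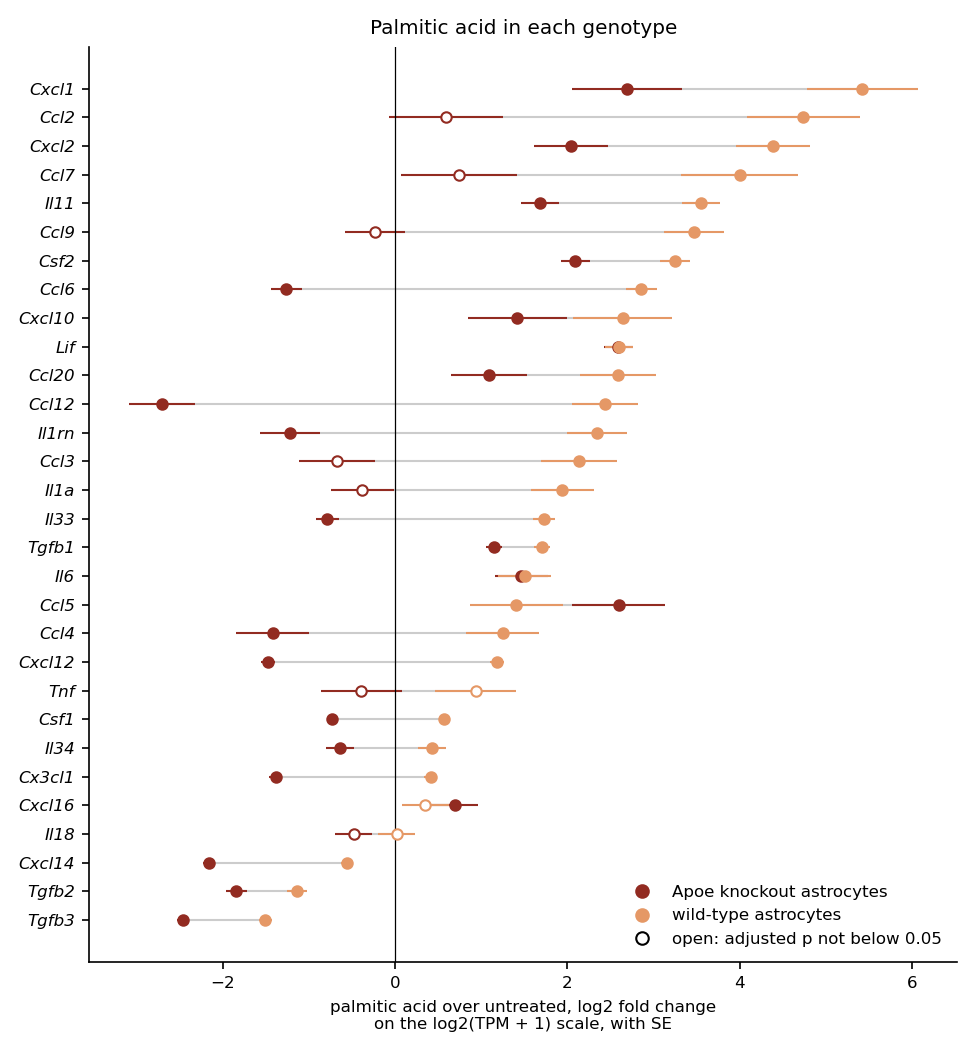
Log2 fold change ± SE of palmitic acid over untreated on the log2(TPM + 1) scale for the 30 chemokines and cytokines tested, in Apoe knockout astrocytes (dark) and in wild-type astrocytes (light). Cxcl12, Ccl12, Ccl6 and Cx3cl1 lie below 0 in knockout and above 0 in wild-type astrocytes, and Lif lies at about the same place in both.

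Set side by side, 10 members were called higher with palmitic acid in both genotypes, namely Ccl5, Ccl20, Csf2, Cxcl1, Cxcl2, Cxcl10, Il6, Il11, Lif and Tgfb1. Among them Csf2 passed the filter through palmitic acid libraries alone, so its calls are a description. Another 3, Cxcl14, Tgfb2 and Tgfb3, were called lower in both. Called lower in knockout and higher in wild-type astrocytes were 9, namely Ccl4, Ccl6, Ccl12, Csf1, Cx3cl1, Cxcl12, Il1rn, Il33 and Il34, of which Csf1 and Il34 were not called in knockout astrocytes with median-ratio scaling. The interaction tests the difference itself. It was negative, meaning a smaller rise or a larger fall in knockout astrocytes, for 23 of the 30 members and positive for 0, against a background of 57.6% of genes called and 43.2% lower. The median of all genes was −0.35 log2, and 0.03 with median-ratio scaling, under which 21 members were lower and 0 higher, without Ccl20 and without Tgfb1 (log2 -0.56 ± 0.13, adjusted p = 0.0011, with that scaling log2 -0.08, adjusted p = 0.77). Ccl12 (log2 -5.15 ± 0.54, adjusted p = 7.6e-08), Ccl6 (log2 -4.12 ± 0.25, adjusted p = 1.3e-11), Ccl2 (log2 -4.15 ± 0.93, adjusted p = 7.6e-04) and Cxcl12 (log2 -2.66 ± 0.11, adjusted p = 5.2e-14) were among those with a difference. For Lif the interaction did not pass (log2 -0.00 ± 0.23, adjusted p = 0.99), nor for Il6 (log2 -0.04 ± 0.44, adjusted p = 0.94) and Cxcl10 (log2 -1.23 ± 0.81, adjusted p = 0.21), though Cxcl10 passed without knockout oleic acid 1, where 1 member was higher and 25 lower. Without that library all genes called by this interaction went from 9304 to 9397. With 0.1 as the pseudocount the interactions of Csf2 (adjusted p over all alternatives 5.9e-05 to 0.32) and Cxcl2 (1.0e-06 to 0.069) did not pass, and that of Ccl20 (6.1e-04 to 0.13) was lost in 13 of 18 alternatives. Among the members whose promoters are shown, Cxcl1 and Cxcl2 rose in both genotypes with a lower change in knockout astrocytes (interaction log2 -2.74 ± 0.90, adjusted p = 0.014, and log2 -2.34 ± 0.61, adjusted p = 0.0026), and Cxcl3 stood at 0.27, 0.070 and 0.21 TPM in knockout palmitic acid libraries and 0.080, 0.36 and 0.79 TPM in wild-type palmitic acid libraries, below the filter.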

How the data were processed

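RNA from 25 brain and 27 astrocyte libraries was compared. Brain was frozen, RNA was extracted with Trizol and TruSeq libraries were made, per the labels' protocols, which carry the same text for the astrocytes. The submitters' processing notes name HISAT2, StringTie, RSEM and mm10, with neither versions nor roles. Values of the astrocytes, the CNO set and the first KA cohort were deposited as TPM per gene, a unit read from the numbers, which sum to 978421.6 to 999897.0 per library over all tables. In the second KA cohort whole-number counts were deposited by the authors, with TPM beside them. Each table was processed on its own, and tests stay within a table. All 65 columns of values were used. Counts within a group differed by far more than sampling noise, so each library counted as 1 sample.

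Under R 4.3.3, limma 3.58.1 was run with a trend on log2(TPM + 1), keeping genes that reached 1 TPM in 3 or more libraries. The quasi-likelihood test of edgeR 4.0.16, with TMM scaling and filterByExpr, was run on the counts as deposited, and levels of those genes are given in TPM. All groups entered 1 fit in the astrocytes and in the second cohort. Benjamini-Hochberg adjustment ran over all genes of a comparison, with 0.05 as the threshold, in 16 comparisons. The scripts were tested on simulated data. Alternatives were median-ratio scaling, DESeq2 1.42.0 size factors and its Wald test, no filter on low values, 0.1 as the pseudocount, a fit of only the groups compared, a block by replicate number, and leaving out each library.

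The members and the lists of receptor, pathway and marker genes were chosen with earlier results of these data known. Values in every library are given for Ccl2, Cxcl10, Il1b, Tnf, Il6, Cxcl12, Csf1 and Tgfb1 where they passed the filter, and for up to 8 members past the threshold with the smallest p per comparison. Others are given by range and count. Genes of a list were taken, up to 4 per comparison, by smallest p past the threshold. Some members outside this rule are named where they stood apart, chosen after their values were seen. Coordinates are from GENCODE M21 on GRCm38, which the count table shares for 31 of 34 members. Promoters were from RefSeq, GRCm38.p6, with the first listed start of each gene. Replicate numbers may pair libraries of the CNO set, which the titles do not state. There same-numbered libraries deviated from their groups alike (correlations of 0.119 to 0.244). The other comparisons did not meet a rule of over 0.1 for every pair. The main fits are unpaired in every set.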

Additional observations from a re-analysis of the deposited data

Results flagged for a closer look

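In the second KA cohort 1 of the 4 KA libraries lay far from the other 3 for 7 members, by the gap to the nearest library as a share of the group's range. Chance flags about 1 in 20 groups, a rate that does not hold for Ccl4, Ccl8 and Cxcl2, which were at 0 in the other 3. KA 1 stood apart for Ccl4 (1.18 TPM). KA 2 stood apart for Cxcl1 (5.39 TPM) and Cxcl2 (0.175 TPM). KA 3 stood apart for Ccl8 (3.06 TPM), Cx3cl1 (361 TPM), Il1rn (0.267 TPM) and Tgfb3 (8.65 TPM).

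The change with neuronal conditional medium differed between knockout and wild-type astrocytes for 7 of the 30 members tested, a share near the background of 18.5% of genes. Values are limma's interaction term in log2, knockout minus wild type. It was −2.57 for Il33, −1.21 for Tgfb1, −0.83 for Cxcl12, −2.21 for Ccl12 and −1.92 for Il1rn, and it was 0.58 for Cxcl14 and 0.82 for Tgfb2.

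The change with oleic acid differed between the genotypes for 9 of the 30 members, a share near the background of 29.6% of genes. The interaction was −4.38 for Il33, −1.43 for Tgfb1 and −0.35 for Csf1, which did not pass with median-ratio scaling. It was 1.99 for Cxcl14, 1.03 for Tgfb2, 3.32 for Ccl4, 3.10 for Ccl3, 2.40 for Ccl5 and 1.15 for Cxcl16, and knockout oleic acid 1 was the highest library for the last 4.

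With palmitic acid the interaction was negative for 23 of the 30 members, against a background of 43.2% of genes. Among Ccl chemokines it was −5.15 for Ccl12, −4.15 for Ccl2, −4.12 for Ccl6, −3.71 for Ccl9, −3.26 for Ccl7, −2.81 for Ccl3, −2.67 for Ccl4 and −1.50 for Ccl20. For the other chemokines it was −2.74 for Cxcl1, −2.66 for Cxcl12, −2.34 for Cxcl2, −1.80 for Cx3cl1 and −1.61 for Cxcl14. For the cytokines and growth factors it was −3.57 for Il1rn, −2.52 for Il33, −2.32 for Il1a, −1.87 for Il11, −1.30 for Csf1, −1.16 for Csf2, −1.08 for Il34, −0.96 for Tgfb3, −0.70 for Tgfb2 and −0.56 for Tgfb1. With median-ratio scaling Tgfb1 and Ccl20 did not pass, nor did Csf2, Cxcl2 and Ccl20 with 0.1 as the pseudocount.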

How the results depend on the processing

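Of 153 member calls, 140 kept their direction and side of the threshold with median-ratio scaling, 130 with no filter, 146 with 0.1 as the pseudocount and 149 with a replicate block, and 129 of 140 did with only the groups compared. Without each library in turn, 121 calls were kept throughout, 31 were lost at least once, and 1, Cxcl10 after CNO, was kept where it passed the filter, and no call reversed. The count of members called moved to 0 in the first KA cohort with median-ratio scaling, with no filter and with the replicate block, to 2 in the CNO set with no filter, and to 3 for medium from knockout neurons with median-ratio scaling. With only the groups compared it was 16 for medium and 7 for oleic acid in knockout astrocytes. The cause was not tested.

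Leaving out 1 library gave 0 to 5 members called in the first KA cohort, 1 to 6 after CNO, and 0 to 0 in the 3 comparisons of the second cohort. In wild-type astrocytes it gave 0 to 1 for medium, 3 to 12 for medium from knockout neurons, 8 to 12 for oleic acid and 24 to 29 for palmitic acid. It gave 11 to 18 for knockout over wild type, and in knockout astrocytes 8 to 16 for medium, 11 to 19 for oleic acid and 21 to 28 for palmitic acid. The interactions gave 7 to 9, 8 to 16 and 22 to 26 for medium, oleic acid and palmitic acid.

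The replicate block ended the calls of Ccl12 in the first KA cohort, of Ccl2 and Cxcl1 for knockout over wild type, and of Ccl20 in the palmitic acid interaction, and no other member call. In the CNO set, where the numbers may pair libraries, the block left 10 members called and raised the genes called from 571 to 928. Elsewhere the rule for pairing was not met (correlations of −0.107 to 0.121). No paired analysis was possible for the A2aR knock down because its libraries share fewer than 2 numbers with KA. The depth of the TPM tables is unknown, so members listed at 0 have no stated limit.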
